A study of Homo sapiens with 15 samples.

Results

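The AP-1 and immediate early genes described here are JUN, JUNB, JUND, FOS, FOSB, FOSL1, FOSL2, ATF3, EGR1 and MYC. They were chosen by name, by matching the gene number of each row of a raw count table to its symbol, and all 10 were found among 28395 genes. All 10 also passed the filter on low counts, which left 16740 genes for testing. The counts come from RNA-seq of BEAS-2B, an immortalized human bronchial epithelial cell line, grown with or without nanosized particles of polyethylene terephthalate (PET-NPLs) made from plastic water bottles.

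AP-1 is a transcription factor made of pairs of proteins with a basic leucine zipper. JUN, JUNB and JUND can pair with themselves, with each other or with a FOS protein, whereas FOS, FOSB, FOSL1 and FOSL2 need a JUN partner to bind DNA. FOS, FOSB, JUN, JUNB, the zinc finger factor EGR1 and the growth regulator MYC are immediate early genes, which growth factors and stress induce rapidly through the MAP kinases without new protein synthesis, whereas FOSL1 follows later and JUND is expressed more steadily. In the airway epithelium these factors act in wound repair, inflammation and growth. ATF3, a stress-induced relative, pairs with JUN proteins and often represses its targets.

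PET-NPLs were added at 50 µg/mL, cells were collected after 24 h, 15 weeks or 30 weeks, and each exposed culture had nonexposed controls of matched passage. There were 2 control and 2 exposed samples at 24 h, 2 and 2 at 15 weeks, and 3 and 4 at 30 weeks. The 24 h and 15-week samples belong to batch 1 and the 30-week samples to batch 2, so each exposure comparison lies within a batch, whereas the step from 15 to 30 weeks crosses both. All groups are the same line, and no engineered genetic change is described for any of them. Whether replicates came from separate cultures is not stated, so the p-values measure the spread between these samples, which may be technical.

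Levels are given in CPM, the counts of a gene per library total after scaling by the trimmed mean of M-values (TMM), and a gene was called a differentially expressed gene (DEG) at an adjusted p under 0.05. Assigned counts per sample ranged from 23143202 to 31459990, with a median of 28605451, so 1 CPM stood for between 23.3 and 33.9 counts. Of the epithelial keratins, KRT8 and KRT18 were at 127 CPM or more in every sample, whereas KRT7 was at 1215 to 1414 CPM in the 24 h samples, 5.29 to 23.4 CPM at 15 weeks and at most 3.29 CPM at 30 weeks. The 10 epithelial markers summed to 2125 to 2462 CPM at 24 h and 826 to 1036 CPM at 15 weeks, and at 30 weeks to 314 to 412 CPM in the controls against 881 to 1097 CPM in the exposed samples, with KRT8, KRT18 and KRT19 called higher after exposure. EPCAM and CDH1 were under 1 CPM throughout, and KRT5, KRT14 and KRT6A had at most 12 counts in any sample. The mesenchymal filament gene VIM was at 1030 CPM or more in every sample. The 8 mesenchymal markers together summed to 3749 to 4418 CPM at 24 h and to 1695 to 1795 CPM at 15 weeks. At 30 weeks they summed to 2153 to 2647 CPM in the controls and 2280 to 2750 CPM in the exposed samples. Of the 7 tested, 3 were called higher and 1 lower after that exposure. Markers of skeletal muscle summed to 193 to 242 CPM in the 30-week controls, against 5.53 to 7.08 CPM in the 30-week exposed samples and at most 12.2 CPM elsewhere. Most of that sum came from a few of the 13 listed genes: MYOD1, the muscle determination factor, was at 65.8 to 106 CPM in the 30-week controls, while MYF5 was at 0 counts in every sample. The 6 abundant small noncoding RNAs, such as RN7SK, took 22.3% to 31.0% of the counts in the 30-week controls and 17.0% to 21.5% in the exposed samples of that time. The part of these differences in the results at 30 weeks was not tested, except that the comparisons were repeated without the 6 small RNAs.

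Per transcript length, JUN was the leading member, with a mean of 34.3 CPM per kb over all 15 samples, followed by FOSL2 at 24.2, MYC at 13.5, JUND at 10.4 and FOSL1 at 10.0 CPM per kb. JUNB stood at 7.83, ATF3 at 4.92 and EGR1 at 2.62 CPM per kb. FOS and FOSB, the classical transient members, were lowest at 0.609 and 0.148 CPM per kb. JUND and FOSL1 were close enough that their order changed between conditions: JUND had the lower condition mean of the pair at 24 h, 7.99 against 9.86 CPM per kb in the controls, and the higher one in the 30-week controls, 13.4 against 12.6.

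In GRCh38, JUN lies on chromosome 1 from 58780791 to 58784047, ATF3 on chromosome 1 from 212565407 to 212620777, EGR1 on chromosome 5 from 138465479 to 138469303 and JUNB on chromosome 19 from 12791486 to 12793315. JUND and FOSB are also on chromosome 19, at 18279694 to 18281622 and 45467996 to 45475179. FOS is on chromosome 14 at 75278828 to 75282230, FOSL1 on chromosome 11 at 65892049 to 65900545 and FOSL2 on chromosome 2 at 28392858 to 28417317. JUNB shares 259 exonic bases with HOOK2 on the opposite strand, and because the strand setting of the counting is not stated, reads from those bases cannot be assigned to either gene with certainty.

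The 4 members with called exposure changes at 30 weeks or with the largest change over time are JUN, JUNB, ATF3 and EGR1, and the 250 bases before their start sites are shown because AP-1 and serum response elements there are textbook inputs to these genes. The sequences are from RefSeq (GRCh38.p14), 5′ to 3′ on the gene's strand. They cover chr1:58784048-58784297 (minus strand) for JUN, chr1:212565157-212565406 (plus) for ATF3, chr5:138465229-138465478 (plus) for EGR1 and chr19:12791236-12791485 (plus) for JUNB. For ATF3 this is the first of 2 promoters, and which of them these cells used was not tested. Capitals mark the motif matches named below them.
JUN: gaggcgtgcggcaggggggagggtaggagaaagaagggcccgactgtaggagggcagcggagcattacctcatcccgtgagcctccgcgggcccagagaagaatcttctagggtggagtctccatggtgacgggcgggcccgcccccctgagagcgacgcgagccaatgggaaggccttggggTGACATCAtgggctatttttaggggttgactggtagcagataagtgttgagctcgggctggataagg
ATF3: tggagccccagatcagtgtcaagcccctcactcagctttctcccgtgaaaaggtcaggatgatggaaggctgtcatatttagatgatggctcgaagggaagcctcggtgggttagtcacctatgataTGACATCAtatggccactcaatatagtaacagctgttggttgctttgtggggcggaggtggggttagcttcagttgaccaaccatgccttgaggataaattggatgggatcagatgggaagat
EGR1: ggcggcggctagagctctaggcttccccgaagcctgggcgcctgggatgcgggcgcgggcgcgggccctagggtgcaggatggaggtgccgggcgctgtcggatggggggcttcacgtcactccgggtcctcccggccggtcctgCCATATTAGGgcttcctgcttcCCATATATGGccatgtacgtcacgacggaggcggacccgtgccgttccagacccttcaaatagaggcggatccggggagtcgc
JUNB: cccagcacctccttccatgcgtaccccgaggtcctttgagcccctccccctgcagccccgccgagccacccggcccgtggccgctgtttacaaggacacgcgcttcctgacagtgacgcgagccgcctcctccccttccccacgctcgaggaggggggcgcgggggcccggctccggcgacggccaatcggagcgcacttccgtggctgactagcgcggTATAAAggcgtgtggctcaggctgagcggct

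In JUN, the capitals mark TGACATCA, the variant AP-1 site, at bases -67 to -60 from the start site, and ATF3 held the same letters at -123 to -116. EGR1 held 2 CArG boxes, the motif bound by serum response factor, at -105 to -96 and -83 to -74. In JUNB the capitals mark the TATA box letters TATAAA at -31 to -26. The 5 motifs were searched on both strands of the RefSeq windows from 250 bases before to 50 bases after the start site, in which 8 of the 10 members matched with 9 promoters; FOSL1 and MYC did not match. Of all 35116 promoters in that table, TGACATCA occurred in 2.61%, the CArG box in 1.29%, TATAAA in 11.5%, the classical AP-1 site TGACTCA in 4.95% and the cyclic AMP site TGACGTCA in 1.85%. FOSL2 held TGACTCA at bases 5 to 11, JUND held TGACGTCA at -200 to -193, and TATAAA also occurred in FOS, FOSB and the second promoter of ATF3. TGACATCA differs from both other AP-1 type motifs, so no match was counted under more than 1 of them. A match describes letters only.

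**Figure D1:**
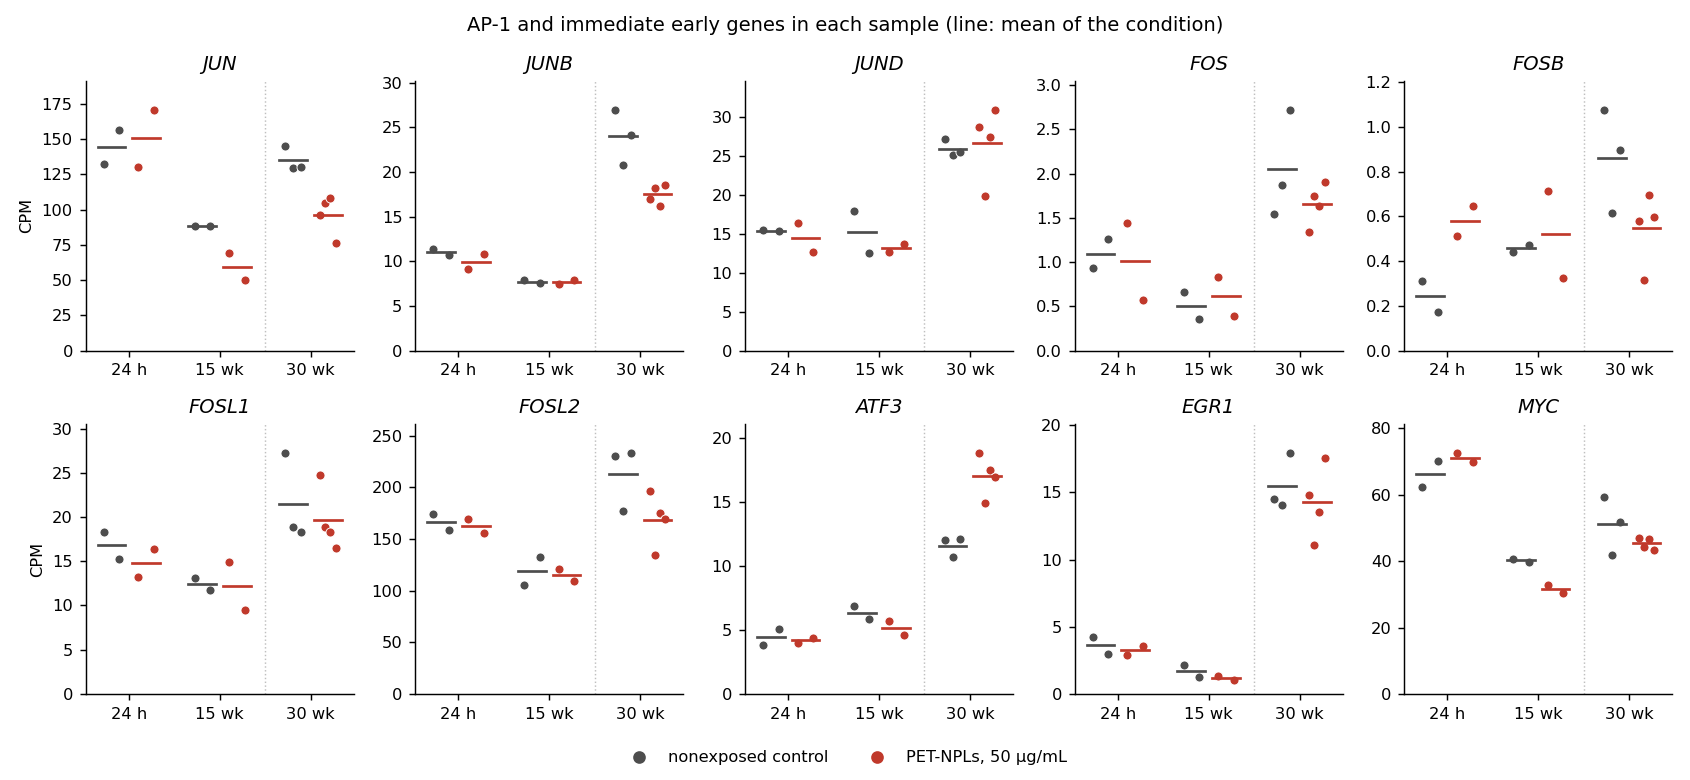
CPM (linear axis from 0) of each AP-1 and immediate early gene in each sample, by time, with gray points for nonexposed controls, red points for PET-NPLs and lines for the mean of the condition; the dotted line separates batch 1 from batch 2. JUN and JUNB lie lower and ATF3 higher in every exposed sample at 30 weeks than in any control of that time, and EGR1 is 11.1 to 17.9 CPM at 30 weeks against 1.07 to 4.26 CPM before.

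The 30-week comparison asks what the longest exposure did to these genes relative to cells kept as long without particles. JUN and JUNB were downregulated and ATF3 was upregulated, and the other 7 members were not called. The 3 called members stand against 23.7% of all genes tested (12.0% higher and 11.7% lower), so the share of members called was near that of the whole table. The median log2 fold change of the 10 members was -0.24, and their median absolute value was 0.324 against 0.298 over all genes.

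JUN, which encodes the main partner in AP-1, was at 145, 129 and 130 CPM in the 3 controls at 30 weeks and at 96.3, 105, 108 and 76.6 CPM in the 4 exposed samples. Every exposed sample lay below every control. In bulk RNA, fewer expressing cells and less RNA per cell cannot be told apart. The log2 fold change was -0.48 (SE 0.146), a 1.40-fold decrease, with an adjusted p of 0.0252 by the quasi-likelihood test of edgeR. The call was lost without control replicate 1 (adjusted p = 0.108), exposed replicate 1 (0.0508) or exposed replicate 4 (0.0756).

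JUNB, whose protein competes with JUN and restrains growth in many cells, was at 27.0, 20.8 and 24.2 CPM in the controls and at 17.0, 18.3, 16.2 and 18.5 CPM in the exposed samples. The groups again did not overlap. The log2 fold change was -0.45 (SE 0.120), a 1.37-fold decrease, with an adjusted p of 0.0119, and the call was lost without control replicate 1 (adjusted p = 0.0720). JUND, the JUN gene that cells express most steadily, was at 27.2, 25.1 and 25.5 CPM in the controls and at 28.8, 19.9, 27.4 and 30.9 CPM after exposure. Its groups overlapped, and the log2 fold change was 0.045 (SE 0.157, adjusted p = 0.874).

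ATF3 was at 12.0, 10.6 and 12.1 CPM in the controls and at 18.8, 14.9, 17.5 and 17.0 CPM in the exposed samples. Here every exposed sample lay above every control. The log2 fold change was 0.56 (SE 0.141), a 1.47-fold increase, with an adjusted p of 0.00939, and ATF3 was called under all 16 alternatives tried.

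Among all genes tested, 27.3% had no overlap between the groups at 30 weeks, as did 3 of the 10 members (JUN, JUNB and ATF3). Without the 6 small noncoding RNAs the log2 fold changes were -0.48 for JUN, -0.45 for JUNB and 0.56 for ATF3, and all 3 were called.

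None of the FOS genes was called at 30 weeks. FOSL2, the most abundant of them, was at 230, 177 and 233 CPM in the controls and at 196, 135, 175 and 170 CPM after exposure. The lowest control fell within the exposed range, and the log2 fold change of -0.34 (SE 0.142) had an adjusted p of 0.0973. FOSL2 was called without control replicate 2 (adjusted p = 0.0391) and by limma-voom with 2 surrogate variables (0.0140).

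FOSL1, a target of ERK signaling in transformed epithelium, was at 27.2, 18.9 and 18.4 CPM in the controls and at 24.8, 18.9, 18.4 and 16.5 CPM after exposure. The groups overlapped, with a log2 fold change of -0.13 (SE 0.186). FOS was at 1.55, 1.88 and 2.72 CPM in the controls against 1.34, 1.75, 1.63 and 1.90 CPM, a log2 fold change of -0.31 (SE 0.323).

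FOSB was at 1.08, 0.61 and 0.89 CPM in the controls and at 0.58, 0.32, 0.70 and 0.60 CPM after exposure. The groups overlapped, and its log2 fold change of -0.64 (SE 0.372, adjusted p = 0.233) was the largest in size among the 10 members and had the largest SE. Both FOS and FOSB were under 3 CPM in every sample.

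EGR1, a zinc finger factor induced by ERK through serum response factor, was at 14.5, 14.0 and 17.9 CPM in the controls and at 14.8, 11.1, 13.6 and 17.5 CPM after 30 weeks of exposure. The groups overlapped, with a log2 fold change of -0.12 (SE 0.192). MYC, which drives ribosome production and growth, was at 59.4, 42.0 and 51.9 CPM in the controls and at 47.1, 44.3, 46.7 and 43.3 CPM after exposure. The exposed samples lay within the control range, between the lowest and the highest control, with a log2 fold change of -0.17 (SE 0.116, adjusted p = 0.312). MYC lies on chromosome 8 from 127735434 to 127742951 and shares 194 exonic bases with the noncoding gene CASC11 on the opposite strand.

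**Figure D2:**
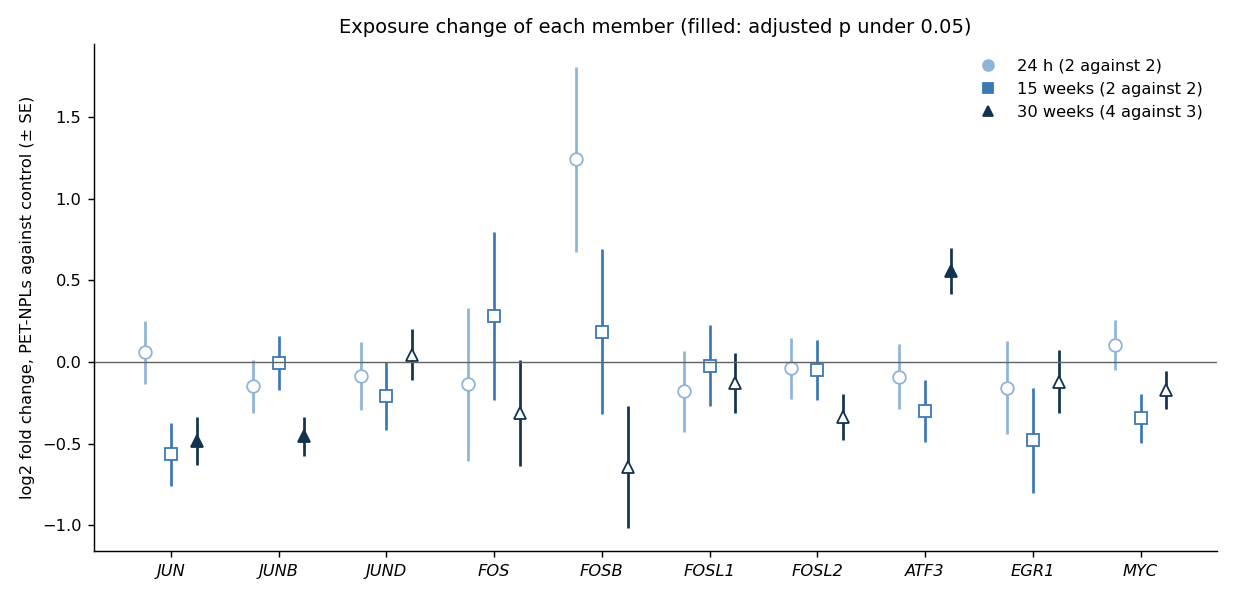
Log2 fold change of each member in PET-NPLs against control samples, with its SE, at 24 h (circles, 2 against 2), 15 weeks (squares, 2 against 2) and 30 weeks (triangles, 4 against 3); filled symbols have an adjusted p under 0.05. Only JUN (-0.48), JUNB (-0.45) and ATF3 (0.56) at 30 weeks are filled.

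At 24 h, the acute comparison, no member was called, and neither was any other gene (0% of those tested), whereas 277 genes and 1 member had an unadjusted p under 0.05. JUN was at 133 and 156 CPM in the controls and at 131 and 171 CPM in the exposed samples, and EGR1 was at 4.26 and 2.97 against 2.89 and 3.58 CPM. The groups overlapped for both. FOSB was the member with the unadjusted p under 0.05, at 0.31 and 0.17 CPM in the controls and 0.51 and 0.65 CPM after exposure, with a log2 fold change of 1.24 (SE 0.565, adjusted p = 1). FOSB was also the only member without overlap between the groups, which 26.0% of all genes shared. DESeq2 and limma-voom called none of the members at 24 h either.

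The other 9 members at 24 h had log2 fold changes between -0.18 and 0.10. JUNB was at 11.4 and 10.7 CPM in the controls and at 9.10 and 10.8 CPM in the exposed samples, and ATF3 was at 3.84 and 5.04 against 3.96 and 4.38 CPM. MYC was at 62.3 and 70.2 CPM without particles and at 72.6 and 69.8 CPM with them. In all 3 genes the groups overlapped.

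At 24 h FOSL2 was at 174 and 159 CPM in the controls and at 169 and 155 CPM in the exposed samples, and FOSL1 was at 18.3 and 15.3 against 13.2 and 16.4 CPM. JUND was at 15.5 and 15.3 CPM without particles and at 16.4 and 12.7 CPM with them. FOS, the member that classical serum induction raises most sharply, was at 0.94 and 1.26 CPM in the controls and at 1.45 and 0.57 CPM in the exposed samples. The ranges of exposed and control samples overlapped in these 4 genes.

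At 15 weeks again 0% of genes and none of the members were called, with 823 genes and 2 members (JUN and MYC) at an unadjusted p under 0.05. DESeq2 and limma-voom called none of the members. JUN was at 88.1 and 88.1 CPM in the controls and at 69.2 and 49.9 CPM in the exposed samples, a log2 fold change of -0.56 (SE 0.194, adjusted p = 0.873). Fitted on the 15-week samples alone, JUN was called (adjusted p = 0.0124), in a fit that called 304 of 15484 genes. MYC was at 40.6 and 39.9 CPM against 32.9 and 30.4 CPM, a log2 fold change of -0.35 (SE 0.152, adjusted p = 0.985).

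ATF3 was at 6.85 and 5.81 CPM in the 15-week controls and at 5.71 and 4.58 CPM in the exposed samples, a log2 fold change of -0.30 (SE 0.191). The groups did not overlap for JUN, MYC and ATF3, all lower after exposure, while 45.3% of all genes had no overlap in this comparison of 2 against 2. EGR1 was at 2.18 and 1.24 CPM against 1.36 and 1.07 CPM, a log2 fold change of -0.48 (SE 0.322). JUNB was at 7.90 and 7.58 CPM against 7.51 and 7.92 CPM, with overlapping groups.

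FOSL2 was at 106 and 132 CPM in the 15-week controls and at 121 and 109 CPM in the exposed samples, inside the control range. FOSL1 was at 13.1 and 11.7 against 14.9 and 9.54 CPM, and FOS at 0.66 and 0.35 against 0.84 and 0.39 CPM. The groups overlapped for both. JUND was at 17.9 and 12.6 CPM in the controls and at 12.7 and 13.7 CPM after exposure, and FOSB at 0.44 and 0.47 against 0.71 and 0.32 CPM, again with overlap.

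JUN was thus lower in every exposed than every control sample at 15 and at 30 weeks, by -0.56 and -0.48 on the log2 scale, but called at 30 weeks only; these are separate samples with separate controls. The difference between the exposure effects at 30 and 15 weeks was 0.082 (SE 0.243) for JUN. For ATF3 that difference was 0.85 (SE 0.237) with an adjusted p of 0.0508, just above the threshold, and for JUNB it was -0.45 (SE 0.203, adjusted p = 0.297). No member was called in this test, against 4.74% of all genes, and 2 members (ATF3 and JUNB) had an unadjusted p under 0.05. Between 15 weeks and 24 h the exposure effects differed in no member and in 0% of genes, with JUN at -0.62 (SE 0.273, adjusted p = 1.00), the member with an unadjusted p under 0.05. DESeq2 and limma-voom called no member there either.

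The median absolute log2 change of the members was 0.434 to 0.859 between sampling times and 0.119 to 0.324 with exposure. Over all genes it was 0.390 to 0.621 between sampling times and 0.113 to 0.298 with exposure. The largest values between times belong to the step from 15 to 30 weeks, which crosses the batches. From 24 h to 15 weeks, within batch 1, JUN, JUNB, EGR1 and MYC were called lower in the nonexposed controls. In the exposed cells JUN, EGR1 and MYC were called lower. The 4 members called in the controls were all lower, as were 12.2% of all genes (24.9% in either direction), and the 3 called in the exposed cells were lower, as were 12.5% of all genes (26.0% in either direction). The median log2 fold change over the 10 members was -0.50 in the controls and -0.43 in the exposed cells, against -0.0165 and 0 over all genes. The median absolute change was 0.614 and 0.434 for the members, against 0.390 and 0.403 over all genes.

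EGR1, at 4.26 and 2.97 CPM in the 24 h controls, fell to 2.18 and 1.24 CPM, a log2 change of -1.09 (SE 0.295, adjusted p = 0.0129), and in the exposed cells the change was -1.41 (SE 0.312, adjusted p = 0.00332). JUN changed by -0.71 (SE 0.193, adjusted p = 0.0126) in the controls and by -1.34 (SE 0.196, adjusted p = 0.000103) in the exposed cells. MYC changed by -0.72 (SE 0.152, adjusted p = 0.0024) and by -1.17 (SE 0.154, adjusted p = 3.66e-05). In all 3 genes, and in JUNB and FOSL2, every 15-week sample lay below every 24 h sample of its series. The share of all genes separated in this way was not counted for this step. In the exposure comparisons of 2 against 2 samples, 26.0% of all genes at 24 h and 45.3% at 15 weeks had no overlap in either direction. JUNB changed by -0.51 in the controls (adjusted p = 0.0297) and by -0.37 in the exposed cells (adjusted p = 0.113). ATF3 took the opposite sign, with log2 changes of 0.51 and 0.30 that were not called (adjusted p = 0.0662 and 0.296). For ATF3, every 15-week sample lay above every 24 h sample of its series.

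Leaving out control samples in turn reduced the 4 calls in the controls to between 1 and 2: only MYC was called in all 4 of these fits, and without replicate 2 at 15 weeks it was the only one. The 3 calls in the exposed cells were made in every such fit.

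From 15 to 30 weeks, 9 of the 10 members were called higher in the controls and 9 of 10 in the exposed cells, FOSB being the exception both times. Higher calls made up 25.6% of all genes in the controls (50.3% in either direction) and 23.3% in the exposed cells (46.0% in either direction). This step joins batch 1 to batch 2, so culture time and batch cannot be told apart, and the skeletal muscle sum of the controls was higher at 30 weeks than at 15 weeks. The heat shock genes summed to 5843 to 7168 CPM in batch 1 and to 2796 to 5432 CPM in batch 2, and the proliferation genes to 3106 to 3402 and to 2042 to 2816 CPM. The 6 small noncoding RNAs, all called higher in both series, took 9.75% to 11.4% of the counts at 15 weeks and 17.0% to 31.0% at 30 weeks. Of the 7 tested epithelial markers, 5 were lower and 1 higher in the controls, and 1 was lower and 1 higher in the exposed cells. The part of these groups in the change of the members was not tested; without the 6 small RNAs, 8 members were called higher in the controls and 9 in the exposed cells.

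EGR1 rose most, from 2.18 and 1.24 CPM to 14.0 to 17.9 CPM in the controls, a 9.09-fold increase (log2 3.18, SE 0.279, adjusted p = 4.79e-07), and from 1.36 and 1.07 CPM to 11.1 to 17.5 CPM in the exposed cells, an 11.7-fold increase (log2 3.54, SE 0.284, adjusted p = 9.99e-07). FOS rose 4.04-fold in the controls and 2.68-fold in the exposed cells, JUNB 3.10-fold and 2.27-fold, and ATF3 1.83-fold and 3.31-fold. JUND rose 1.70-fold and 2.03-fold, FOSL2 1.80-fold and 1.47-fold, FOSL1 1.73-fold and 1.61-fold, and JUN 1.53-fold and 1.62-fold. MYC rose least of the called members in the controls, 1.27-fold with an adjusted p of 0.0499, and rose 1.43-fold in the exposed cells. The MYC call in the controls was not made by limma-voom, without a filter, without the 6 small RNAs or with the replicate block. It was made by DESeq2, limma-voom with 2 surrogate variables, upper quartile scaling and a filter of at least 10 counts in every sample.

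Every 30-week control lay above every 15-week control for all 10 members, and every 30-week exposed sample lay above every 15-week exposed sample for 9 of 10, all but FOSB; of all genes, 34.0% and 28.1% were higher in this sense. The count of 9 in the controls fell to 5 without replicate 2 at 15 weeks (JUNB, FOS, FOSL2, ATF3 and EGR1 were called), and that in the exposed cells fell to 4 without replicate 2 at 15 weeks (JUNB, JUND, ATF3 and EGR1).

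**Figure D3:**
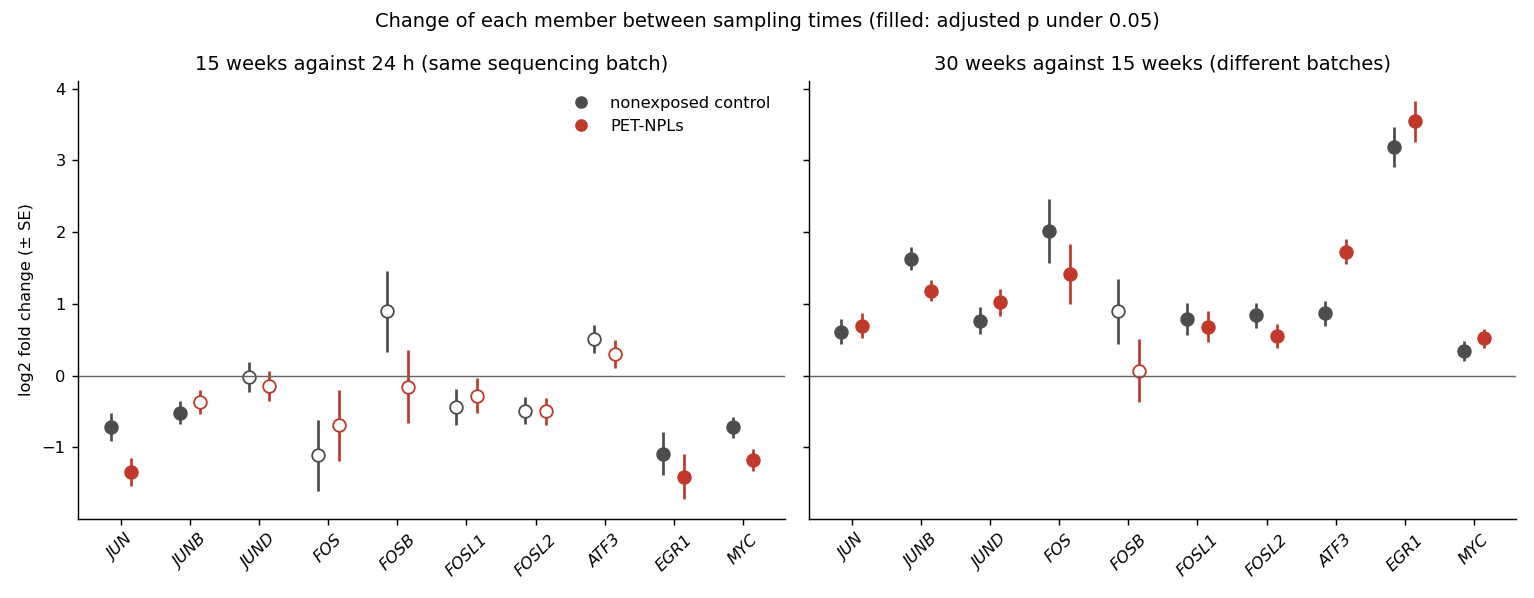
Log2 fold change of each member between sampling times, with its SE, in nonexposed controls (gray) and PET-NPLs (red), for 15 weeks against 24 h (left, same batch) and 30 weeks against 15 weeks (right, different batches); filled points have an adjusted p under 0.05. JUN, EGR1 and MYC are below 0 on the left in both series, and EGR1 is highest on the right at 3.18 and 3.54.

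Within the JUN family, JUN held the largest share per transcript length in every sample. It took 74.0% to 77.7% of the summed CPM per kb of the family in the 24 h controls, 66.5% to 71.7% in the 15-week controls and 60.2% to 62.0% in the 30-week controls. With PET-NPLs it took 74.9% to 80.7%, 57.3% to 66.6% and 47.4% to 61.3% at the same times. The ranges of control and exposed samples overlapped at 30 weeks, and at 15 weeks the highest exposed share was 66.6% and the lowest control share 66.5%. JUNB took 9.44% to 11.4% in the 24 h controls and 17.7% to 20.1% in the 30-week controls, and JUND took 19.7% to 32.3% in the exposed samples at 30 weeks. These ranges were not tested.

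In the FOS family, FOSL2 took between 62.5% and 74.5% of it and FOSL1 between 22.9% and 34.7% in every sample, while FOS never exceeded 2.75% and FOSB never exceeded 0.692%. The summed level of the family was 35.3 CPM per kb in the 24 h controls, 25.4 at 15 weeks and 45.6 at 30 weeks, and 33.5, 24.7 and 37.6 CPM per kb with PET-NPLs. The JUN family summed to 58.4, 39.2 and 68.0 CPM per kb in the controls and to 59.2, 29.3 and 53.1 CPM per kb in the exposed samples.

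**Figure D4:**
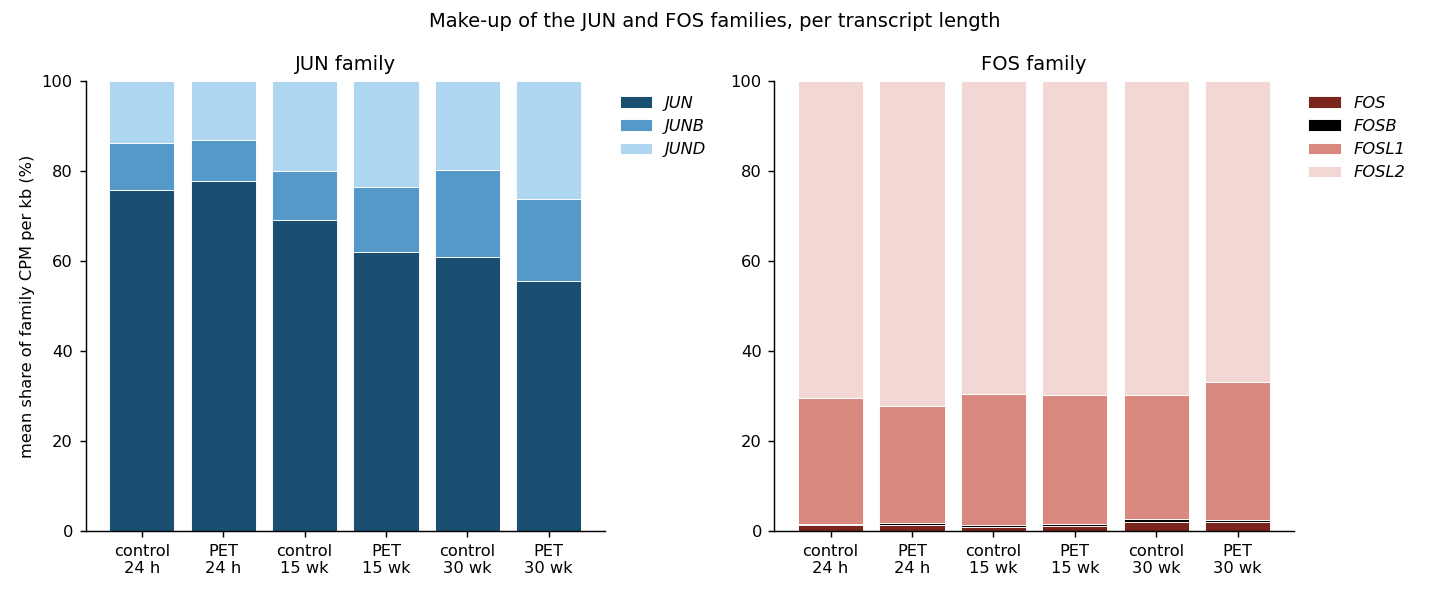
Mean share (percent, from 0 to 100) of each gene in the summed CPM per kb of the JUN family (left) and the FOS family (right) in the 6 conditions. JUN falls from 75.9% to 61.0% in the controls from 24 h to 30 weeks, and FOSL2 stays between 66.8% and 72.1% throughout.

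Across the 15 samples, JUNB and EGR1 followed each other most closely among the members, with a Pearson r of log2 CPM of 0.955, followed by JUND and EGR1 at 0.92 and JUN and MYC at 0.889. ATF3 and MYC had the lowest value, -0.224. These samples share conditions and batches, so the values are a description. By the same measure over 10779 genes, the genes nearest to JUN were LIF and IMPDH2 (both 0.938), to JUNB S100A10 (0.975), to ATF3 DOLK (0.984) and to EGR1, by the second highest value, IDH2 (0.98). CPA4 was nearest to MYC (0.967), EHD1 to FOSL2 (0.953), RDH13 to FOSL1 (0.905), NRSN2 to JUND (0.963), MCOLN1 to FOS (0.911) and ZNF707 to FOSB (0.806).

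The other genes of the pathway were taken from lists by function. At 30 weeks, of 23 tested MAP kinase and serum response factor regulators, 6 were upregulated and none was downregulated, where 12.0% of all genes were called higher and 11.7% lower. The same shares of all genes stand beside the counts of the lists that follow at 30 weeks. RPS6KA3, a kinase below ERK, rose from 37.2 ± 5.1 to 59.0 ± 6.7 CPM (SD; log2 fold change 0.66, adjusted p = 0.000993). ELK4, a partner of serum response factor, rose from 49.2 ± 6.0 to 73.0 ± 9.0 CPM (0.57, adjusted p = 0.00629) and MAP2K6, an activator of p38, from 3.74 ± 0.22 to 5.33 ± 0.93 CPM (0.51, adjusted p = 0.0447). The other 3 were MAPK9, MAPK8 and MAPK14, with log2 fold changes of 0.33 to 0.41. The median of the list was 0.092, against 0.0078 over all genes.

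Of 24 other immediate early genes tested, 3 were upregulated and 4 downregulated at 30 weeks. CCN2, a secreted matrix protein gene, rose from 96.0 ± 17.1 to 220 ± 39 CPM (log2 fold change 1.20, adjusted p = 2.81e-05), the kinase gene SGK1 rose by 0.85 and the GTPase gene RHOB by 0.83. KLF2, a zinc finger factor, fell from 4.96 ± 1.01 to 1.88 ± 0.24 CPM (-1.39, adjusted p = 0.000138), the NF-κB cofactor NFKBIZ fell from 31.6 ± 5.2 to 14.4 ± 1.0 CPM (-1.13, adjusted p = 1.04e-05) and the antiproliferative gene BTG2 fell by 0.71. NR4A2 also fell, at under 1 CPM, and is named after its value was seen.

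Of 16 genes tested for ERK feedback and output, DUSP4, a phosphatase of MAP kinases, rose from 10.5 ± 1.3 to 26.0 ± 4.2 CPM (log2 fold change 1.31, adjusted p = 8.63e-06) and EPHA4 rose by 0.68. CCND1, the G1 cyclin, fell from 63.1 ± 12.7 to 24.6 ± 10.8 CPM (-1.36, adjusted p = 0.00106). The remaining 13 were not called.

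Of 14 textbook AP-1 targets tested, 5 were upregulated and 2 downregulated. The adhesion receptor gene CD44 rose from 286 ± 14 to 475 ± 60 CPM (log2 fold change 0.73, adjusted p = 0.000797) and the growth factor gene HBEGF by 0.57 (adjusted p = 0.0451). PLAU, the urokinase protease gene, fell from 189 ± 47 to 90.2 ± 6.5 CPM (-1.07, adjusted p = 4.89e-05), and CCND1 is the other gene that fell. MMP1 and MMP3, named after their values were seen, were called higher at means under 2 CPM.

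Of 12 other leucine zipper partners tested, JDP2, a repressor that pairs with JUN, rose by 0.33 (adjusted p = 0.0493), and MAF, at under 1 CPM and named after its value was seen, was called lower. In the integrated stress response, which induces ATF3, 3 of 10 genes rose and 2 fell. ASNS rose from 3.56 ± 0.14 to 6.57 ± 0.75 CPM (log2 fold change 0.89, adjusted p = 0.000769), CEBPG by 0.51 and TRIB3 by 0.39, whereas DDIT4 fell from 66.0 ± 12.2 to 15.6 ± 3.0 CPM (-2.08, adjusted p = 2.52e-07) and CHAC1 changed by -1.24.

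Of 10 tested members of the MYC network, 4 fell and none rose: MYCL fell from 17.9 ± 2.0 to 3.17 ± 1.00 CPM (log2 fold change -2.49, adjusted p = 5.92e-07), and the MYC antagonists MXD4, MNT and MXI1 fell, with log2 fold changes of -0.98, -0.76 and -0.57. Of 16 MYC target genes, POLR1B rose by 0.44 and NOP56 by 0.40, and the other 14 were not called. Among 9 heat shock genes HSPH1 rose by 0.72, and among 8 proliferation genes MKI67 rose by 0.81. Of the 6 small noncoding RNAs 5 fell, with log2 fold changes of -0.90 for RN7SK, -0.84 for RN7SL1 and -0.79 for RPPH1.

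**Figure D5:**
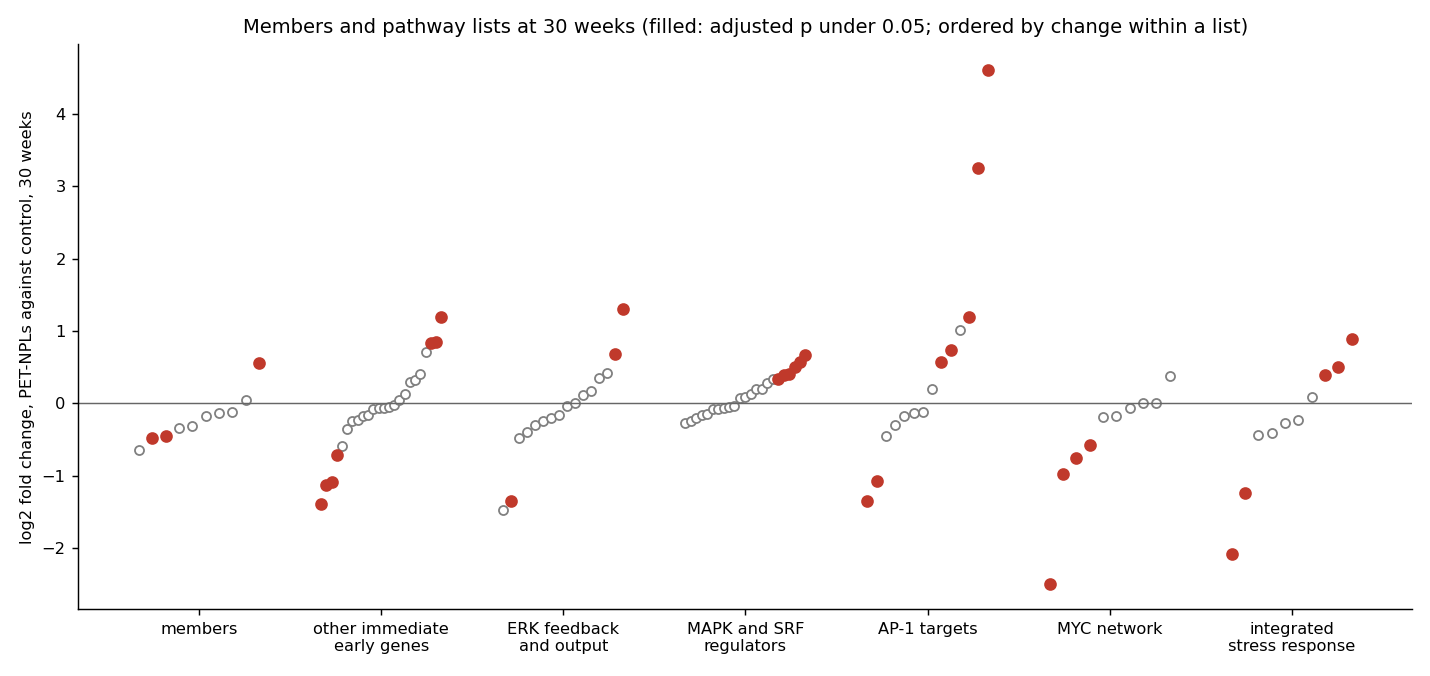
Log2 fold change at 30 weeks (PET-NPLs against control) of every tested gene of 7 lists, ordered within each list; filled red points have an adjusted p under 0.05. The members span -0.64 to 0.56, and the lists of AP-1 targets, other immediate early genes and the stress response each hold filled points on both sides of 0.

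At 24 h and 15 weeks of exposure none of the listed genes was called. Between times, 11 of the 24 other immediate early genes fell from 24 h to 15 weeks in the controls and none rose, and 11 fell and none rose in the exposed cells, where 12.2% and 12.5% of all genes fell. KLF2 changed by -1.68 and -1.45 on the log2 scale, and RHOB by -1.30 and -1.84. Of the 14 AP-1 targets, 9 fell in the controls and 11 in the exposed cells, with none rising, beside the same 12.2% and 12.5%. Of the 7 tested epithelial markers, 4 fell in each series and none rose. CCND1 changed by -2.34 and -2.63 on the log2 scale.

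From 15 to 30 weeks, 12 of the 24 rose and 2 fell in the controls, and 15 rose and 1 fell in the exposed cells, where 25.6% and 23.3% of all genes rose. KLF2 rose by 2.07 in the controls (adjusted p = 1.69e-05), and its change in the exposed cells was 0.42 (adjusted p = 0.192). DUSP4 fell by 0.97 in the controls, and its change in the exposed cells was 0.34 (adjusted p = 0.0987). The difference between the exposure effects at 30 and 15 weeks was called for KLF2 (-1.65, adjusted p = 0.0143), DUSP4 (1.31, adjusted p = 0.00305), CCN2 (1.29, adjusted p = 0.00438) and RHOB (1.36, adjusted p = 0.000823). By list, 2 of the 24 other immediate early genes were higher and 2 lower, and 2 of 14 AP-1 targets and 1 of 16 ERK genes were higher. In the MYC network and the stress response 1 of 10 genes each was lower. Of all genes 4.74% were called, and of the 10 members none, with ATF3 at an adjusted p of 0.0508. Whether the members differ from these lists was not tested.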

How the data were processed

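RNA of BEAS-2B cells from 15 samples in 6 conditions was sequenced by the authors as stranded, rRNA-depleted total RNA. The deposited values are raw counts per Entrez gene, made by the authors by alignment to GRCh38 and counting with featureCounts (Rsubread). The submitters' processing notes also name bcl2fastq. The strand setting and the handling of multimapping reads are not given in the sources used here.

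Genes were filtered with filterByExpr over the conditions, scaled by TMM and tested with edgeR 4.0.16 (R 4.3.3, glmQLFit and glmQLFTest) in 1 fit of all 15 samples with a mean per condition; p-values were adjusted by Benjamini-Hochberg over 16740 genes with a threshold of 0.05. Log2 CPM used a prior count of 2. Levels per length used the Ensembl canonical transcript of GENCODE. SE and log2 fold changes are those of the fit. The scripts were tested on simulated data.

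The members and lists were chosen with earlier results of these data known. All 10 members are named; from each other list up to 3 genes per direction with the largest change at 30 weeks among those called with a mean of at least 1 CPM at that time, any list gene called at 24 h or 15 weeks, and per member the nearest genes by Pearson r with a mean of at least 5 CPM. Time comparisons name genes already named. Some genes that this rule names are not reported here. Alternatives were DESeq2 1.42.0, limma-voom (limma 3.58.1) without and with 2 surrogate variables (sva 3.50.0), each time point alone, other filters, upper quartile scaling, the table without 6 small RNAs, a threshold of 0.01, a replicate block and leaving out each library of the compared conditions.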

Additional observations from a re-analysis of the deposited data

Results flagged for a closer look

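The exposure change of ATF3 had opposite signs at 15 and 30 weeks. Both exposed samples lay below both controls at 15 weeks (log2 fold change -0.30, SE 0.191), and all 4 exposed samples lay above all 3 controls at 30 weeks (0.56, SE 0.141). The change at 15 weeks was not called (unadjusted p = 0.1375 by edgeR). Of all genes, 45.3% had no overlap at 15 weeks and 27.3% at 30 weeks. The difference between the exposure changes of ATF3 was 0.85 (SE 0.237). Its adjusted p was 0.0508 by the edgeR interaction test, which misses the threshold. Each change lies within its own batch, and time and batch cannot be told apart.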

How the results depend on the processing

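At 30 weeks of exposure ATF3 was called in 16 of 16 alternatives (adjusted p 0.000819 to 0.0399), JUNB in 15 (0.00216 to 0.0720) and JUN in 12 (0.00403 to 0.108). At a threshold of 0.01 the 3 members called at 30 weeks became 1 (ATF3), and the 4 called in the 15-week against 24 h controls became 1. Fitted alone, the 15-week samples gave 1 call among the members (JUN) and 304 among 15484 genes. For the difference between the exposure effects at 30 and 15 weeks, DESeq2, limma-voom with 2 surrogate variables and the table without the small RNAs each gave 1 call (ATF3). Among all genes tested they called 1110, 1973 and 786, in that order, against 794 in the main fit. Leaving out 1 library gave 1 to 4 member calls at 30 weeks, in fits that called 2491 to 5704 of all genes. It gave 1 without control replicate 1 (2491 of all genes) and 4 without control replicate 2 (3586 of all genes). It gave 1 to 2 calls for 15 weeks against 24 h in controls, 5 to 9 for 30 against 15 weeks in controls, 4 to 9 in exposed cells, and 0 to 1 for the difference at 30 against 15 weeks, with ATF3 called without exposed replicate 2 at 30 weeks.

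Directions reversed in members that were not called. FOSB at 15 weeks was -0.052 with surrogate variables. With the replicate block 2 members (ATF3 and JUNB) were called at 30 weeks, JUN was not (adjusted p = 0.0965), and JUND was -0.045. Same-numbered samples did not deviate together in every pair (r of -0.118, 0.303 and 0.0981 at 30 weeks). Differently numbered samples were not compared, so this check cannot decide whether the numbers pair the samples. Leaving out 1 library, the log2 fold changes at 24 h ranged from -0.15 to 0.23 for JUN, -0.29 to 0.088 for JUND, -0.94 to 0.40 for FOS, -0.11 to 0.024 for FOSL2, -0.28 to 0.12 for ATF3 and -0.39 to 0.12 for EGR1. At 15 weeks they ranged from -0.040 to 0.035 for JUNB, -0.44 to 0.070 for JUND, -0.37 to 0.80 for FOS, -0.49 to 0.64 for FOSB, -0.38 to 0.27 for FOSL1 and -0.20 to 0.12 for FOSL2. At 30 weeks they ranged from -0.025 to 0.16 for JUND, -0.26 to 0.083 for FOSL1 and -0.23 to 0.0016 for EGR1. The cause was not tested. Where leaving out a library left 1 sample in a condition, that sample was assumed to vary like the others. Depth limits FOS and FOSB, which stayed under 3 CPM.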
